A study of Homo sapiens with 6 samples.

Results

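Molecular chaperones fold other proteins, and co-chaperones hand them clients, tether cofactors or time their ATP cycle. The 5 genes described here are FKBP4 and RPAP3, which encode HSP90 co-chaperones, TSACC, which encodes a co-chaperone of a testis kinase, CCT3, which encodes a chaperonin subunit, and HSPB6, which encodes a small heat shock protein. They were chosen by name: FKBP4, RPAP3 and HSPB6 are rows of a gene table in FPKM (fragments corrected for gene length and sequencing depth), and CCT3 and TSACC are rows of a second gene table of whole-number counts. They are 5 of the 198 gene rows analysed. RNA was sequenced from LNCaP-AI, a castration-resistant prostate cancer line derived from LNCaP. The control group was 3 libraries with a vector (control 1 to 3), and the other was 3 libraries carrying sh_0092339, a hairpin against the circular RNA hsa_circ_0092339 (knockdown 1 to 3). The labels give the 3 knockdown libraries the same hairpin name and do not say that replicates were separate cultures, so the p-values cover the spread of these samples alone, and that spread may be technical. What the hairpin does to other RNAs and what the loss of the circular RNA does cannot be told apart.

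In prostate cells the best known HSP90 client is the androgen receptor, a steroid receptor that HSP90 holds ready to bind hormone. FKBP4 joins the mature receptor complex through its tetratricopeptide repeats and promotes hormone binding, and it also has peptidyl-prolyl isomerase activity. RPAP3 is the scaffold of the R2TP complex, which brings HSP90 to large assemblies such as RNA polymerase II, small nucleolar ribonucleoproteins and mTOR and related kinases. CCT3 is a subunit of TRiC, the ring-shaped cytosolic chaperonin that folds actin and tubulin. TSACC binds HSP70 and HSP90 and is known for activating the kinase TSSK6 in testis. HSPB6 holds unfolded proteins in solution without ATP and is best known from smooth and cardiac muscle. The androgen receptor and the other steroid receptors, the HSP90 proteins and the targeted circular RNA were not analysed here, and neither was any of 15 marker genes of prostate, neuroendocrine, mesenchymal or immune cells, so neither the knockdown nor the labelled cell type was checked.

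The start regions of 4 of the 5 genes were found in the RefSeq promoter table (GRCh38.p14, 250 bases before to 50 after the annotated start); FKBP4 had no entry. They are shown because CCT3 and TSACC share one. The CCT3 window lies at chr1:156338243-156338542 on the minus strand and the window of the first TSACC start at chr1:156338276-156338575 on the plus strand. The starts face away from each other, 234 bases apart, and 267 bases belong to both windows, so the CCT3 sequence stands for both. TSACC has a second start 610 bases from that of CCT3, whose window shares 0 bases with it. RPAP3 starts in chr12:47705981-47706280 and HSPB6 in chr19:35756980-35757279, both on the minus strand. Sequences run 5′ to 3′ along the gene, and capitals mark matches to the motifs named in the next paragraph (ATTGG is CCAAT on the other strand).
CCT3: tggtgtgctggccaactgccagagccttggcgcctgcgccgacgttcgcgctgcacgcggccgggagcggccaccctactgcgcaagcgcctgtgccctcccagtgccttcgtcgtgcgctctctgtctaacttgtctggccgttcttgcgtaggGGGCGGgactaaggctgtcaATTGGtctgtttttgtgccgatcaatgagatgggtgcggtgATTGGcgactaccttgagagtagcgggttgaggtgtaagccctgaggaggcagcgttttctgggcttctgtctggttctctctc
RPAP3: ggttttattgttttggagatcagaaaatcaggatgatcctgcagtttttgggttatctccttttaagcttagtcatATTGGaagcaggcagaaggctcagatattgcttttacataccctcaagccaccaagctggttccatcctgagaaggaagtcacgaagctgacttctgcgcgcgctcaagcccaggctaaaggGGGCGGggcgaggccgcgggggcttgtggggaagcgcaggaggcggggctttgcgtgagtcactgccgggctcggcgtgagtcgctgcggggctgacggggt
HSPB6: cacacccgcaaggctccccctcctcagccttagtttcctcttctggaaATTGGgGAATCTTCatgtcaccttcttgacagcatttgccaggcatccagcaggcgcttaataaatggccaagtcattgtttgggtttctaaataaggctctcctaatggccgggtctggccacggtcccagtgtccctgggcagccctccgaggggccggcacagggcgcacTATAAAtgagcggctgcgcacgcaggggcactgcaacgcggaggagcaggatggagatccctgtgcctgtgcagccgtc

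The motifs were searched on both strands. A CCAAT box (CCAAT) was found in 4 of the 5 windows, which are 3 of 4 separate regions since CCT3 and the first TSACC start share theirs. Of 35116 promoter windows of the same length in the table, 34.6% held one. The shared CCT3 and TSACC region held 2 matches, 30 to 34 and 71 to 75 bases before the CCT3 start, and the window of the second TSACC start held 0. A GC box (GGGCGG, in 45.0% of all windows) occurred once in that shared region and once before RPAP3. HSPB6 had the one match to a pair of heat shock element units (GAANNTTC, in 6.77% of all windows), which the heat shock transcription factor is known to bind when units are repeated. HSPB6 also had a TATA box (TATAAA, in 11.5%) 29 bases before its start. The E-box of MYC and MAX (CACGTG, in 7.26%) was in 0 of the 5 windows. These matches describe the letters of these windows and do not show that a factor binds there.

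**Figure D1:**
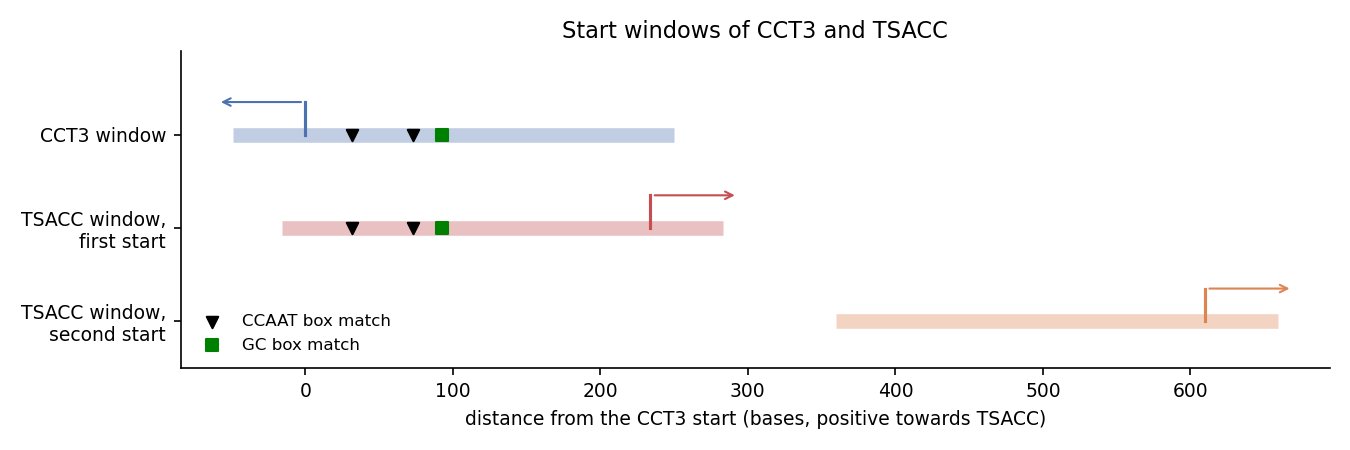
The bars are the 300-base start windows of CCT3 and of both TSACC starts, drawn as distance in bases from the CCT3 start. Arrows show the direction of transcription, and the triangles and square are CCAAT and GC box matches. The CCT3 window and that of the first TSACC start overlap by 267 bases and hold the same 3 matches.

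The series names a link between the circular RNA, the microRNA hsa-miR-940 and MYC. The mature hsa-miR-940 in RefSeq (chr16:2271806-2271826, plus strand) is printed with its seed, bases 2 to 8, in capitals.
hsa-miR-940: aAGGCAGGgcccccgcucccc
A 7-base match to this seed (CCTGCCT) was looked for in the 3′ untranslated region of the longest coding transcript of each gene in GENCODE 29. FKBP4 (2165 bases), RPAP3 (2256 bases), HSPB6 (953 bases) and CCT3 (231 bases) had 0 matches. Among genes with regions of like length the shares with a match were 38.2%, 39.8%, 22.7% and 6.7%. The region of TSACC, 13 bases long, was too short to be searched. Sites of other kinds were not searched.

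Of the 5 genes, 3 rose in the knockdown libraries (FKBP4, RPAP3 and CCT3), 0 fell, TSACC was measured but not called, and HSPB6 was too low for the fit and was compared by itself. Called means a Benjamini-Hochberg adjusted p under 0.05 over all tested rows of a table. By the scaling of the deposited values the libraries held 53127020 to 80559726 mapped fragments. Among 70 genes tested in FPKM, 20.0% rose and 11.4% fell. Among 31 genes tested in counts, 3.23% rose and 9.68% fell. The median change over all tested genes was 0.034 on the log2 scale for FPKM and -0.016 for counts. In bulk RNA, fewer cells with a transcript and less of it per cell cannot be told apart.

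FKBP4 was raised most clearly. Its level was 53.9, 54.3 and 54.5 FPKM in the control libraries and 73.6, 76.0 and 77.5 FPKM in the knockdown libraries. The groups did not overlap, and the gap of 19.1 FPKM between them was wider than the range within either. The means were 54.2 ± 0.307 and 75.7 ± 1.98 FPKM (SD, n = 3 each), a ratio of 1.40. The controls varied by 0.567% of their mean, and counting 16160 to 19404 fragments alone gives 0.760%, so their spread was no wider than counting gives. The knockdown libraries varied by 2.61%, where counting gives 0.608%. In the limma fit on log2(FPKM + 1) the log2 fold change was 0.47 ± 0.0444 (SE; adjusted p = 0.00149), and FKBP4 had the smallest p of the 70 genes and stood in place 4 by ratio. With quantile normalization of the 70 genes it was 0.27 and not called (limma adjusted p = 0.144). That setting replaces each level by the mean level at its rank. FKBP4 stood in place 2 by level, where few genes lie, so its change was limited there by its rank. FKBP4 lies at 2794970 to 2805423 on chromosome 12, plus strand, and 3 genes annotated on the other strand share 116, 257 and 285 of its 5180 exonic bases; whether strand was used in counting is not known from the labels.

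RPAP3 rose less. Its level was 10.95, 9.86 and 10.7 FPKM in the controls and 12.6, 11.9 and 12.3 FPKM in the knockdown libraries. Every knockdown library was above every control, with a gap of 0.908 FPKM between the nearest pair, control 1 and knockdown 2. Groups without overlap were common: 52.9% of the 70 tested genes had them, and 31.4% had every knockdown library higher. The means were 10.5 ± 0.580 and 12.2 ± 0.353 FPKM (SD, n = 3 each), a ratio of 1.16, and the log2 fold change was 0.20 ± 0.0567 (SE; limma adjusted p = 0.0377). The call was lost with edgeR on the counts of the same table (adjusted p = 0.0534) and by limma without control 1 (adjusted p = 0.0510), control 2 (0.110), knockdown 1 (0.0941), knockdown 2 (0.0574) or knockdown 3 (0.103). RPAP3 lies at 47661249 to 47706030 on chromosome 12, minus strand. The 1 annotated gene inside it lies in an intron and shares 0 exonic bases with it.

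Both HSP90 co-chaperones of the FPKM table were thus called, but not with the same size of change. The FPKM of FKBP4 was 4.92, 5.51 and 5.07 times that of RPAP3 in the control libraries and 5.86, 6.41 and 6.30 times in the knockdown libraries. This ratio was higher in 3 of 3 knockdown libraries than in any control and is unaffected by a single scaling factor per library. How often the ratios of other gene pairs separate in this way was not computed, and 52.9% of the 70 single genes did so. Quantile normalization, which shifts genes of 1 library by different amounts, brought the log2 fold changes close together, 0.27 for FKBP4 and 0.21 for RPAP3. It replaces each level by the mean level at its rank, and FKBP4 stood in place 2 by level. The genes next below it, POLR2J and ARF5, had knockdown means of only 54.6 and 49.7 FPKM. The change of FKBP4 was thus limited by its rank, so this setting cannot tell whether both genes changed alike. The log2 ratio averaged 2.37 ± 0.0843 among the controls and 2.63 ± 0.0691 among knockdown libraries (SD, n = 3 each), a difference of 0.26 (exact two-sided permutation p = 0.1, the smallest that 3 against 3 allow).

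**Figure D2:**
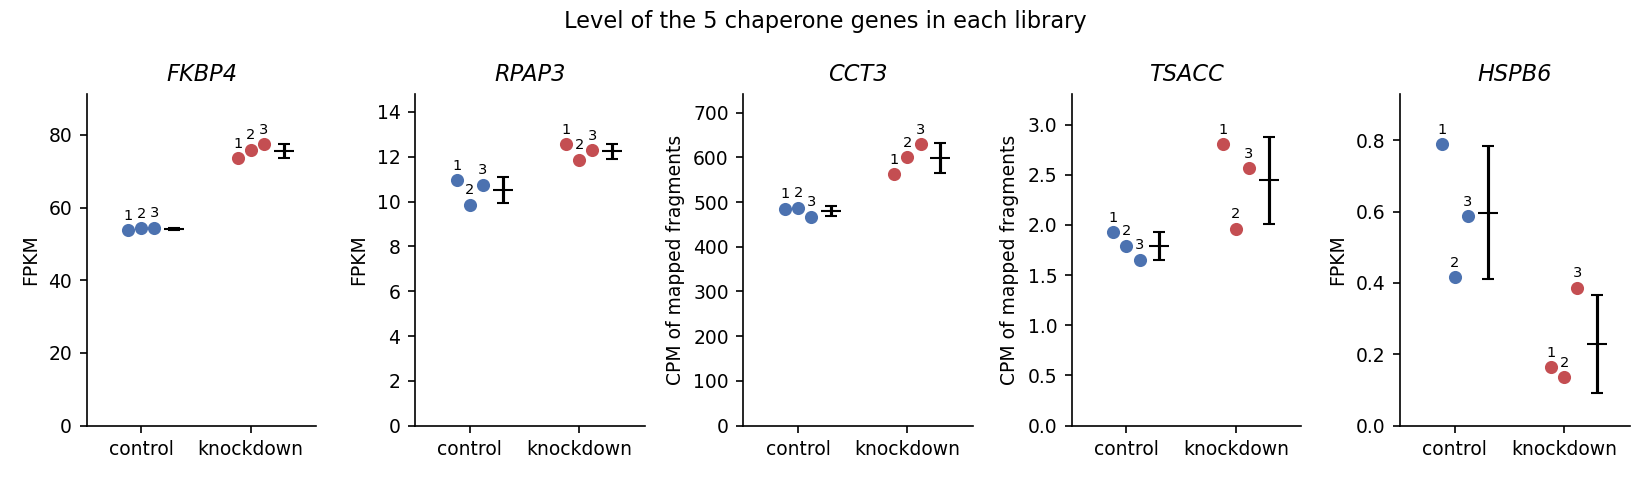
Each point is 1 library, with its replicate number, and the bar beside each group is the mean with its SD (n = 3). Levels are in FPKM for FKBP4, RPAP3 and HSPB6 and in counts scaled by mapped fragments (CPM) for CCT3 and TSACC, on axes from 0; the groups are far apart for FKBP4 and nearly touch for TSACC and HSPB6.

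CCT3, the chaperonin subunit, was the 1 gene of the count table that was called as higher. Its level was 484.7, 487.1 and 467.5 CPM in the controls and 562.5, 600.3 and 629.3 CPM in the knockdown libraries, from 28155 to 48357 counts per library. The knockdown libraries were all above the controls, with a gap of 75.4 CPM; 12.9% of the 31 tested genes had every knockdown library higher. The means were 479.8 ± 10.7 and 597.4 ± 33.5 CPM (SD, n = 3 each), a ratio of 1.25, and edgeR's quasi-likelihood test gave a log2 fold change of 0.31 ± 0.0671 (SE; adjusted p = 0.0273). The direction held under each of the 12 alternatives but the call did not: it was lost with DESeq2 (adjusted p = 0.291), upper-quartile scaling (0.353) and no low-count filter (0.415), and when edgeR was run with a library left out: control 1 (0.421), control 2 (0.274), knockdown 2 (0.0864) or knockdown 3 (0.0570). With the recovered depth as the only scaling it was called (edgeR adjusted p = 0.0113). The DESeq2 fit changed the scaling as well as the test, since it scaled by the tested rows in place of the recovered depth.

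TSACC starts beside CCT3 and was expressed at a far lower level. It had 112, 105 and 114 counts in the control libraries (1.93, 1.79 and 1.65 CPM) and 149, 158 and 189 counts in the knockdown libraries (2.80, 1.96 and 2.57 CPM). The knockdown libraries were all higher, but knockdown 2 exceeded control 1 by 0.0333 CPM, and the exact 95% Poisson intervals of those levels, 1.67 to 2.29 and 1.59 to 2.32 CPM, overlap. The means were 1.79 ± 0.138 and 2.44 ± 0.435 CPM (SD, n = 3 each), a ratio of 1.37 (log2 fold change 0.44 ± 0.183 by edgeR, adjusted p = 0.223, unadjusted p = 0.0432). Without knockdown 2 the log2 fold change was 0.61 and it was called (edgeR adjusted p = 0.0318).

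The pair with the shared start region was also compared within libraries. For each TSACC count there were 250.3, 270.6 and 281.7 CCT3 counts in the controls and 199.9, 305.1 and 244.5 in the knockdown libraries. The knockdown libraries lay on both sides of the controls, knockdown 1 with the most TSACC for its CCT3 and knockdown 2 with the least. The log2 ratio of TSACC to CCT3 averaged -8.06 ± 0.0868 among the controls and -7.94 ± 0.305 among knockdown libraries (SD, n = 3 each), a difference of 0.12 (exact two-sided permutation p = 0.6). The difference rested on single libraries: it was -0.032 without knockdown 1 and 0.27 without knockdown 2, where the groups no longer overlapped (exact two-sided permutation p = 0.1, the smallest that 3 against 2 allow). In GENCODE 29 CCT3 spans 156308968 to 156367873 on chromosome 1, minus strand, and TSACC 156337314 to 156346995, plus strand; the spans overlap, but the annotated exons share 0 bases.

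**Figure D3:**
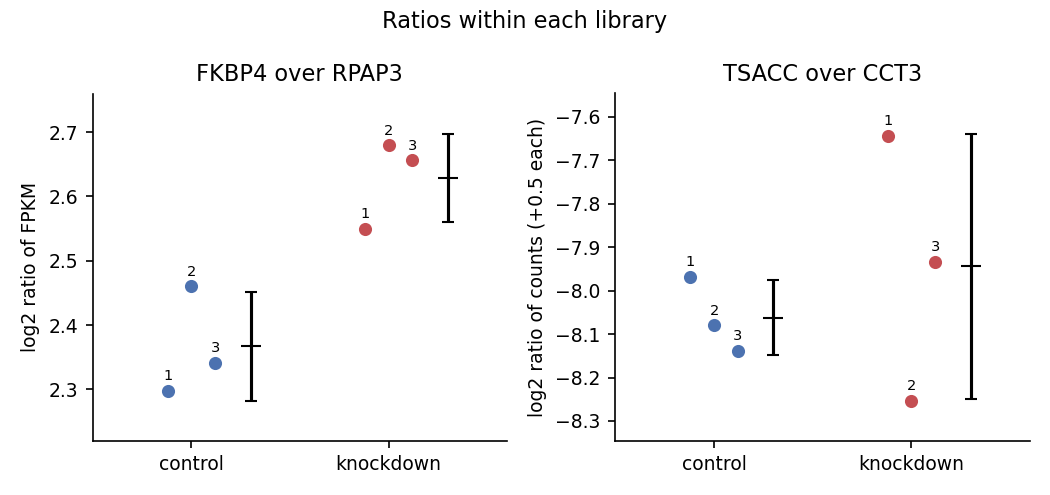
Points are the log2 ratio of 2 genes within each library, labelled by replicate number, with the group mean and SD (n = 3) beside them. The ratio of FKBP4 to RPAP3 was higher in each knockdown library than in any control, and that of TSACC to CCT3 overlapped between the groups.

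HSPB6 was the 1 gene that was lower. It had 80, 43 and 70 counts in the controls (0.789, 0.416 and 0.587 FPKM) and 15, 19 and 50 counts in the knockdown libraries (0.163, 0.135 and 0.386 FPKM). The groups did not overlap, but knockdown 3 was only 0.0295 FPKM below control 2, and the 95% Poisson intervals of those levels, 0.287 to 0.509 and 0.301 to 0.560 FPKM, overlap. The mean went from 0.597 ± 0.187 to 0.228 ± 0.138 FPKM (SD, n = 3 each), a ratio of 0.382 (exact two-sided permutation p = 0.1, the smallest possible). Below a mean of 1 FPKM, 15 genes had a mean of at least 10 counts, and in 33.3% of them, HSPB6 included, every knockdown library was lower. On the counts edgeR gave a log2 fold change of -1.38 ± 0.50 (SE; adjusted p = 0.0783), where 9.52% of 84 genes fell. The spread was wider than counting gives: 31.3% of the mean against 12.5% among the controls, and 60.3% against 18.9% among the knockdown libraries. HSPB6 lies at 35754566 to 35757029 on chromosome 19, minus strand, and an antisense gene shares 657 of its 1721 exonic bases (38.2%). Reads within these shared bases cannot be assigned to 1 gene of the pair without strand.

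**Figure D4:**
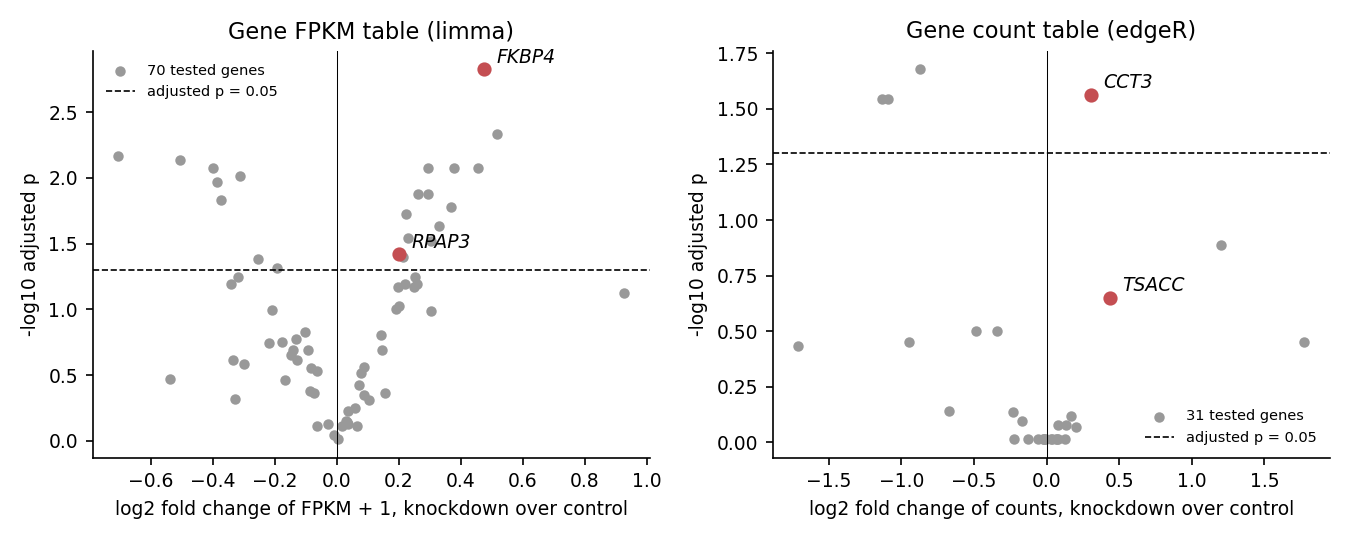
Each grey point is a tested gene (70 by FPKM, 31 by counts), and red points are FKBP4, RPAP3, CCT3 and TSACC; the x axis is the log2 fold change of knockdown over control and the y axis -log10 of the adjusted p. FKBP4 is the highest point of its panel, RPAP3 lies just above the dashed line at an adjusted p of 0.05, CCT3 above it and TSACC below it.

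To compare levels between genes of both tables, counts were divided by the annotated exonic length and the mapped fragments. On this per-length scale the order was CCT3, FKBP4, RPAP3, TSACC and HSPB6 in 6 of 6 libraries. The counts of CCT3 and TSACC come from a separate table, and their lengths could not be checked against FPKM. The control means were 119.4 ± 2.66, 54.0 ± 0.305, 10.5 ± 0.574, 1.61 ± 0.124 and 0.605 ± 0.187 on the FPKM scale (SD, n = 3 each), and no neighbours in the order overlapped. The genes that were called are the 3 with the highest level. HSPB6, under a mean of 1 FPKM, was left out of the limma fit, so it could not be called there. In the count table a gene with lower means than TSACC, 1.39 CPM in the control and 0.639 CPM in the knockdown, was called (edgeR adjusted p = 0.0286). Counting error is relatively smaller at higher counts, but whether this bears on the calls was not tested.

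The patterns across the 6 libraries were compared by the root mean square difference of log2 values, each gene centred on its own mean. Closest to FKBP4 were HCCS (0.0522), GCLC (0.0809) and ST7 (0.0929), where the median over 69 genes was 0.246; RPAP3 was in place 13 with 0.148. Closest to RPAP3 were RBM6 (0.0470), C1orf112 (0.0582) and UPF1 (0.0684), where the median was 0.154; FKBP4 was in place 33 of 69 with 0.148, near that median. Closest to CCT3 among 30 genes were PDHB (0.132) and CDC42EP2 (0.145), neither of them called, where the median was 0.350. TSACC was in place 6 with 0.193. For TSACC, which was added to this comparison after the values were seen, CCT3 was the closest of 30 (0.193, where the median was 0.437). It was only narrowly ahead of RGPD6 (0.208), which was not called.

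Other chaperone genes were looked up in 11 lists with 184 entries, among them HSP90, HSP70 and J proteins, exchange factors, the other chaperonin and prefoldin subunits, folding factors of the endoplasmic reticulum and mitochondria, and heat shock transcription factors. The entries found in the gene tables were 5, the members themselves: FKBP4 and TSACC of 29 HSP90 co-chaperones, RPAP3 of 17 R2TP genes, CCT3 of 24 chaperonin and prefoldin genes and HSPB6 of 11 small heat shock proteins. Other subunits of R2TP and of the chaperonin were not analysed here, so whether these complexes changed as a whole was not tested.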

How the data were processed

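RNA of 6 LNCaP-AI libraries (3 control, 3 knockdown) was extracted with Trizol, per the labels' protocols. Cutadapt, HISAT2, StringTie and the build hg18 are named in the submitters' processing notes; the counting of strand and of multiply mapped reads is not given there. The table's coordinates are those of GRCh38: 99 of 99 genes overlap their place in GENCODE 29. The authors deposited FPKM values together with counts for genes and for isoforms, per the file headers (a count of 0 is listed at 0.0001 FPKM). A further deposited table holds gene counts. Each table was analysed for 99 rows. The isoform length, another kind of value that was deposited, served only to recover each library's mapped fragments, as the median of count, length and FPKM over 23 or 24 isoforms with at least 1000 counts.

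For FPKM, limma 3.58.1 with a trend was run on log2(FPKM + 1), which understates changes of low genes, leaving out rows with a mean under 1 FPKM. For counts, edgeR 4.0.16 was used (quasi-likelihood, filterByExpr, TMM factors on the tested rows, recovered fragments as library sizes) in R 4.3.3. DESeq2 1.42.0, with its own size factors from the tested rows, was an alternative. The limma and edgeR fits were tested on simulated data with the same spread for all genes, so that test does not cover genes with a wider spread. HSPB6 and the ratios were compared by exact permutation. Poisson intervals cover counting error only. CPM is the count scaled by the recovered fragments. Exonic length is the union of GENCODE 29 exons; in 84 of 91 genes it was within 10% of the length implied by count and FPKM. Replicates of a group differed by a chi-square of 26.4 to 67.2 per degree of freedom, so none was a repeated deposit. The members, lists and tests were chosen with earlier results of these data known. Genes named were the members, listed chaperones and the 3 closest patterns per gene, of which 1 is not reported here.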

Additional observations from a re-analysis of the deposited data

How the results depend on the processing

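The direction of FKBP4, RPAP3, CCT3, TSACC and HSPB6 held under every alternative run. FKBP4 was called under 11 of 12, not with quantile normalization (log2 fold change 0.27), where its high rank by level limits the change. RPAP3 was called under 5 of 12, not with edgeR on counts (0.21) or a replicate block (0.20, limma adjusted p = 0.0733), and CCT3 under 5 of 12, not with upper-quartile scaling (0.22), DESeq2 (0.37) or no low-count filter (0.41). Leaving out 1 library gave 0.46 to 0.49 for FKBP4, 0.16 to 0.23 for RPAP3, 0.28 to 0.46 for CCT3, 0.34 to 0.61 for TSACC and -2.00 to -1.12 for HSPB6. It gave 0.23 to 0.31 for the ratio of FKBP4 to RPAP3, and -0.032 (without knockdown 1) to 0.27 for that of TSACC to CCT3. The genes called in the FPKM table, 22 in all (14 higher and 8 lower), ranged from 13 (without knockdown 1; 14 without knockdown 3) to 25; median centring gave 23 higher and 7 lower, quantile normalization 8 and 8. Those in the count table, 4, became 2 with library size only, DESeq2 or limma-voom, 1 with upper-quartile scaling, 0 with no low-count filter (6 at an unadjusted p under 0.05 by edgeR) and 0 to 3 without 1 library (edgeR; 5 at an unadjusted p under 0.05 in both fits that called 0, without control 2 or knockdown 3; 1 without knockdown 1 and 2 without control 1). The causes were not tested. Same-numbered libraries did not deviate together (correlations of -0.12, -0.12 and -0.13 over 70 genes). Differently numbered libraries had correlations of -0.17 to 0.29. These values show no sign of a pairing by replicate number but cannot exclude one, and the labels do not state one. With the block 17 and 3 genes were called. HSPB6 rests on 15 to 80 counts per library and TSACC on 105 to 189; the spread of HSPB6 in both groups and of TSACC in the knockdown (17.8% against 7.78%) was wider than counting gives.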

Other observations

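FKBP4 and CCT3, the members with the most fragments, both rose, and their ratio within libraries was added after the values were seen. The FKBP4 count was 0.574, 0.576 and 0.602 of the CCT3 count among the controls and 0.675, 0.654 and 0.636 of it with the hairpin. The mean log2 ratio was higher by 0.17 in the knockdown (3 of 3 libraries above every control; exact two-sided permutation p = 0.1, the smallest that 3 against 3 allow), and 0.14 to 0.19 with 1 library left out. The rise of FKBP4 was thus the larger in each knockdown library, although the counts come from separate tables. The share of other gene pairs with ratios that separate the groups was not computed.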
